A study of Mus musculus with 18 samples.

Results

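The 10 gene symbols Coro1a, Dock2, Dock8, Rac1, Rac2, Rhoh, Was, Arhgdib, Mst1 and Stk4 were taken as a list of actin regulators that T cells need to leave the thymus. They were found by symbol among the 43280 genes of each count table, and all 10 were present and passed the low-count filter that left 13922 genes for testing. RNA of sorted mouse cells was sequenced in 18 libraries. The group CD4+CD8+ (n = 3), the group iRTE (n = 5, labelled CD8+ T cells) and the group Artificial CD8 (n = 5, also CD8+ T cells, with OP9 and CD8SP in their descriptions) were differentiated from Pmel iPSC, that is, induced pluripotent stem cells. The group splenic CD8 (n = 5) held naive CD8+ T cells taken ex vivo from the spleen of transgenic mice. No treatment, age or further allele is labelled for any group, and the transgene is not named in the labels of the mice. OP9-DL1, a stromal line that carries a Notch ligand, is given as the culture for every sample, the spleen included. The series' design text places 1 of the CD8+ groups in a 3D thymic culture, which by elimination is iRTE. Origin from iPSC or mouse, the culture and the cell stage therefore cannot be told apart between iPSC-derived and splenic cells. Between iRTE and Artificial CD8 the culture and the cell stage cannot be told apart either. The sort used CD45, CD4, CD8 and the alpha-beta receptor of T cells, and a dump gate removed cells with CD11c, NK1.1 or a gamma-delta receptor. Whether replicates came from different cultures or animals is not labelled, so each p-value reflects the spread between these libraries alone, which may be technical.

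A T cell crawls out of the thymus by building branched actin at its front. Exchange factors of the DOCK family load GTP onto Rac and Cdc42, small GTPases that switch on the WAVE complex and the Wiskott-Aldrich protein, and these start new filaments through the Arp2/3 complex. Coronin binds filaments and restrains or recycles branches, RhoGDI proteins hold the GTPases inactive in the cytosol, and the kinase Stk4, commonly called Mst1, acts through Mob1 on adhesion and on Dock8. Loss of several of these genes in mice or people leaves few naive T cells in blood and lymph nodes.

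Levels are given as CPM, the usual library-scaled count, with library sizes adjusted by edgeR's trimmed mean of M values (TMM), and a change is the log2 difference fitted by edgeR's quasi-likelihood test over all 18 libraries, followed by ± a standard error computed from the spread of log2 CPM in both groups. A change was called at a Benjamini-Hochberg adjusted p under 0.05 over the 13922 genes. Total counts ran from 11132800 to 19305800 per library. T-lineage markers were present in every group, with sums of 10 genes between 6384 and 10100 CPM. Cd4 stood at 154.9 to 263.4 CPM in CD4+CD8+ libraries, at 0 counts in iRTE and at 1.89 to 9.18 CPM in Artificial CD8, where Rag1 was still at 135.9 to 168.9 CPM. A list of 8 markers of CD4+CD8+ thymocytes, these 2 included, summed to 1342 to 1593 CPM in CD4+CD8+ and 910 to 1009 in Artificial CD8. The sums were 6.61 to 73.5 CPM in iRTE and 46.8 to 54.5 in splenic CD8. Markers of stromal cells summed to 1.64 to 99.2 CPM in CD4+CD8+, 0.973 to 4.70 in iRTE, 18.9 to 29.1 in Artificial CD8 and 2.32 to 4.33 in splenic CD8, with 5 of 13 (Pdgfra, Thbs1, Dcn, Lum and Postn) at 0 in Artificial CD8. Gamma-delta markers summed to 924 to 1106 CPM in Artificial CD8, 356.5 to 673 in iRTE, 379 to 596 in CD4+CD8+ and 26.2 to 33.7 in splenic CD8. NK markers summed to 565 to 1312 CPM in iRTE, 723 to 910.5 in Artificial CD8, 592 to 886 in CD4+CD8+ and 484 to 554 in splenic CD8. Thymic epithelial markers summed to 35.8 to 48.1 CPM in Artificial CD8, 23.3 to 26.2 in CD4+CD8+, 5.51 to 14.7 in iRTE and 6.79 to 10.02 in splenic CD8. B-cell markers summed to 35.6 to 48.6 CPM in splenic CD8, 17.6 to 23.4 in Artificial CD8 and at most 10.3 in the other groups, and erythroid markers to 89.1 to 120.9 CPM in splenic CD8 and at most 2.25 elsewhere. The part of these other markers in the results was not tested, and in sorted bulk samples fewer cells of a type and less RNA per cell cannot be told apart.

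The level of long relative to short transcripts also differed between libraries. It was measured as the median log2 deviation of genes in the longest quartile minus that in the shortest quartile (from 6383.75 and up to 2305 bp of exon). CD4+CD8+ 1 (-0.51), iRTE 3 (-0.56) and iRTE 5 (-0.45) stood apart on the low side, while splenic libraries lay between 0.17 and 0.38 and Artificial CD8 libraries between -0.15 and 0.09. Counts of members are therefore also given without those 3 libraries, or after a smooth trend on exon length was removed in each library. Both settings were chosen after the data were seen.

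Some symbols need care. In the RefSeq gene table Mst1 is the symbol of the gene also named Hgfl, which encodes a secreted growth-factor-like protein, and it is at the same time a synonym of Stk4. The row Mst1 is thus not the Mst1 kinase, whose row is Stk4. In the GENCODE M21 annotation, 51.4% of the exon bases of Rac1 overlap the oppositely oriented gene Daglb, 8.62% of those of Mst1 overlap Rnf123 and 7.97% of those of Arhgdib overlap Pde6h. Dock2 shares 4.03% with an antisense transcript and Coro1a 0.934% with Bola2. The strand setting of the counting is not given in the sources used here, so reads in these stretches cannot be assigned to a strand, and the level of Rac1 is the one most exposed to this.

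Promoter sequences of 8 members were found in the RefSeq promoter table of GRCm38.p6, with no entry for Rac1 and Rac2. The sequences of 4 members are shown because they hold the same 6 letters next to the annotated start, while their transcripts differed in behaviour: Dock2 and Was were higher in iRTE than in Artificial CD8, Dock8 and Stk4 were not called. Each run covers 80 bases before the start and 20 after it, 5′ to 3′ on the strand of the gene, and capitals mark GGAAGT or, on the other strand, ACTTCC, the core read by ETS-family factors such as those that are abundant in lymphocytes.
Dock2 (chr11:34783886-34783985, minus strand): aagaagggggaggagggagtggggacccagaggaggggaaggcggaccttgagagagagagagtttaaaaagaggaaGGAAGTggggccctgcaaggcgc
Was (chrX:8090472-8090571, minus strand): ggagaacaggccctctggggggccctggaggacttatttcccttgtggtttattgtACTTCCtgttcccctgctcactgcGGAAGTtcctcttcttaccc
Stk4 (chr2:164074058-164074157, plus strand): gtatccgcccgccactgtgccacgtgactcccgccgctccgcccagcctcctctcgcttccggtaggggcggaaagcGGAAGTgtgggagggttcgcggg
Dock8 (chr19:24999449-24999548, plus strand): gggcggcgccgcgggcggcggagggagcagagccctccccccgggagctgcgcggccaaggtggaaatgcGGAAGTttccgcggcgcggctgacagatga
The capitals begin 3 bases before the start in Dock2 and Stk4, 10 bases before it in Dock8, and 24 bases before it and at base 1 in Was. Within 100 bases before to 50 after the start, 5 of the 8 member genes held the letters on either strand, the fifth being Arhgdib in 1 of its promoters, against 16.7% of the 27025 genes of the table. Counted by promoter, these were 5 of 11 against 14.6%. Within the full 300 bases of each entry the members were again 5 of 8, against 26.5% of genes. Genes that are not expressed here were not left out of these shares. A match of letters is a description and not a binding site, and the members that shared it did not share 1 pattern of expression.

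Per kilobase of exon, the inhibitor Arhgdib and the coronin Coro1a were the most abundant members. In iRTE cells the mean level per kilobase was 1563 ± 227 CPM (SD, n = 5) for Arhgdib, 1035 ± 153 for Coro1a and 727 ± 130 for Rac2. A lower tier held Rac1 at 162 ± 20.5, Stk4 at 117 ± 34.4 and Dock2 at 104 ± 26.3 CPM per kilobase, neighbours in that order differing by less than the sum of their SDs. Rhoh (39.9 ± 5.95), Dock8 (33.7 ± 6.12) and Was (31.0 ± 3.00) followed below that tier, differing from one another in that order by less than the sum of their SDs, and Mst1 was near 0 at 0.115 ± 0.108 CPM per kilobase. In all groups Arhgdib, Coro1a and Rac2 stood above the other members by this measure.

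**Figure D1:**
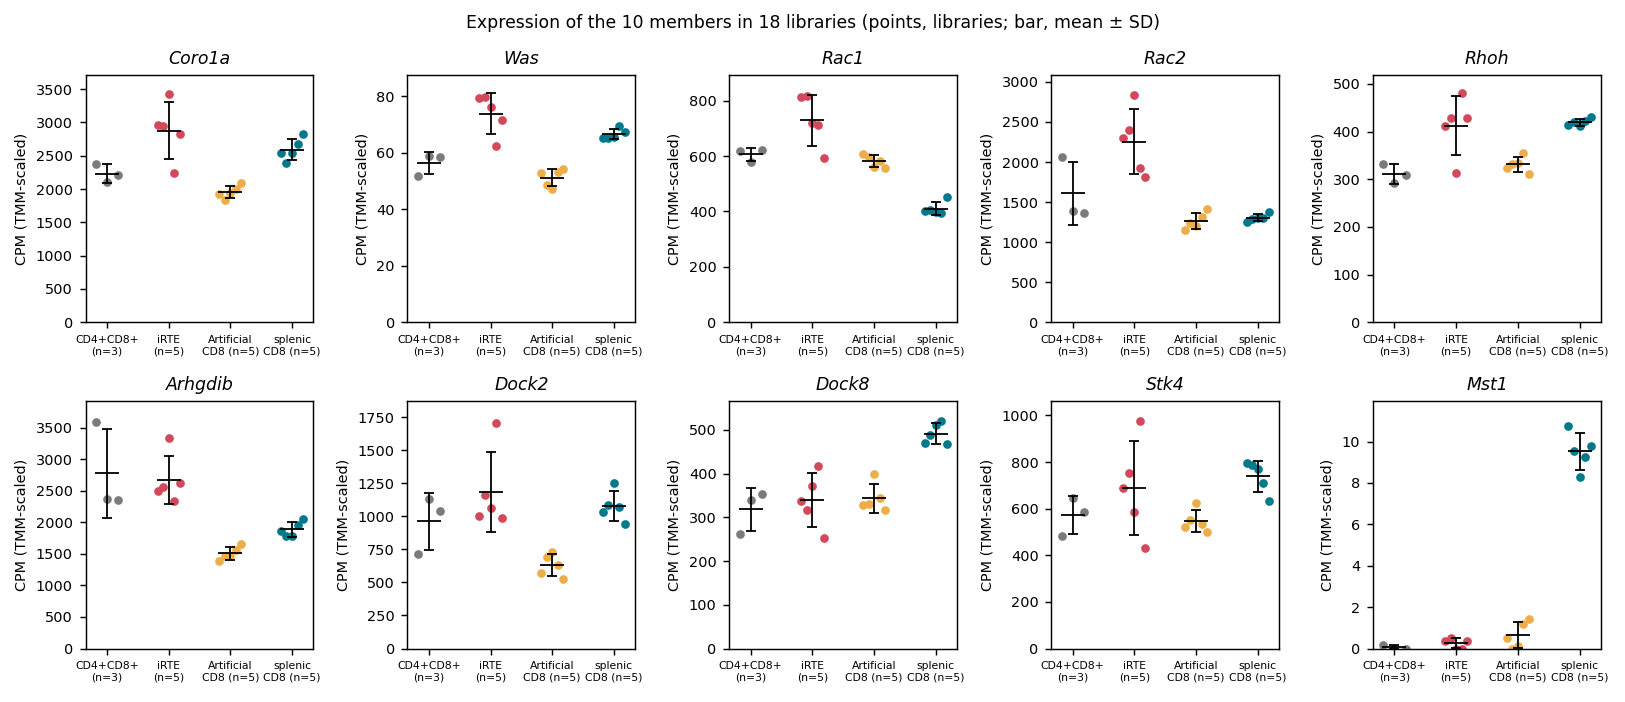
TMM-scaled CPM (vertical axes, from 0) of the 10 genes in every library of the 4 groups; points are libraries, and the bars give the mean and SD. Dock2, Rac2, Coro1a, Was and Arhgdib separate iRTE from Artificial CD8 with no shared values, and Mst1 is near 0 outside the splenic libraries.

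The first comparison, iRTE against Artificial CD8, set the 2 kinds of iPSC-derived CD8+ cells beside each other. They also differed in culture and in the markers of CD4+CD8+ thymocytes, and the parts of these cannot be told apart. Of the 10 members 7 rose and 0 fell in iRTE (38.7% of all genes were called in either direction and 20% were higher), and 5 members, all higher, did not overlap between the groups (23.6% of all genes in either direction and 11% higher). The median log2 change was 0.43 over the members and 0.01 over all genes. Dock2, Rac2, Arhgdib, Coro1a and Was rose most, and Rac1 and Rhoh by less; Dock8, Stk4 and Mst1 did not pass. When libraries were scaled by total counts alone, 5 members rose, and Rac1 (0.20, adjusted p = 0.0511) and Rhoh (0.20, adjusted p = 0.151) were lost. That scale shifts the median of all genes by -0.12 and lowers the share of higher genes among all calls from 51.8% to 39.4%. Over all alternatives, that scale among them, 21.2% to 48% of all genes were called. Without the 3 libraries that stand apart in transcript length 8 rose, Stk4 among them, beside 21% of all genes.

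In the second comparison, iRTE against splenic CD8, 3 members were higher (Rac1, Rac2 and Arhgdib) and 2 lower (Dock8 and Mst1), where 58.2% of all genes were called, 29.2% higher and 29% lower. The groups did not overlap for 5 members, 3 of them higher and 2 lower, against 41.2% of all genes, 18.6% higher and 22.6% lower. Mst1 was 1 of the 2 lower, and it passed the filter only through the splenic libraries. Without Mst1, 4 of 9 members were called. The median absolute change was 0.33 over the members and 0.75 over all genes. Scaling by total counts alone moved the share of higher genes among the calls from 50.2% to 40.5%, with a shift of the median of -0.18. It left 3 members higher and 2 lower. Over all alternatives, that scale among them, 34.5% to 65.5% of all genes were called.

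In the third, Artificial CD8 against splenic CD8, 8 members were lower and 1, Rac1, was higher, with 60.6% of all genes called, 30.3% higher and 30.2% lower. No overlap was seen for 9 members, 1 higher and 8 lower, against 61.1% of all genes, 29.9% higher and 31.1% lower. Mst1, which passed the filter only through the splenic libraries, was among the 8 lower. The counts without Mst1 were 8 of 9 called. The median log2 change was -0.39 over the members and -0.03 over all genes, and Rac2 did not pass. These 3 comparisons share their groups with one another, so their values are given side by side and not as independent results.

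**Figure D2:**
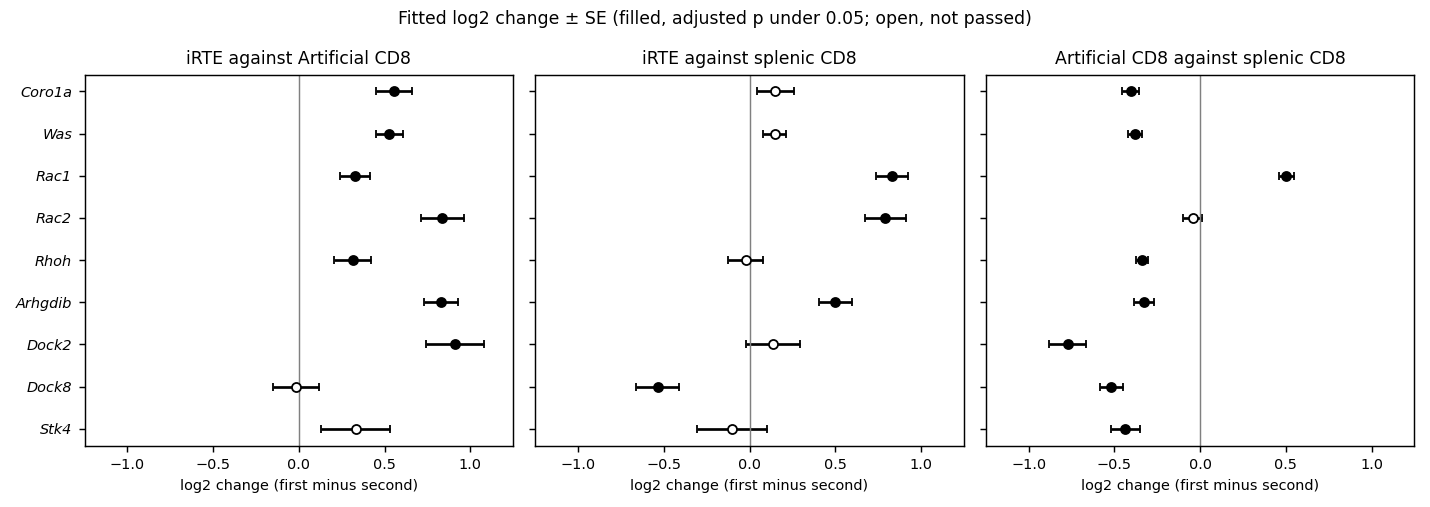
Fitted log2 change (horizontal axes, first group minus second) ± standard error of 9 members in 3 comparisons; filled points passed adjusted p 0.05 and open points did not. Mst1 is left out because its change lies beyond the axis. Dock8 sits at -0.02 for iRTE against Artificial CD8 and below 0 in both comparisons with splenic cells, whereas Rac1 is above 0 in all 3.

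The exchange factors Dock2 and Dock8 behaved differently. Dock2, the main Rac activator of lymphocytes downstream of chemokine receptors, stood at 1004, 1159, 1065, 1708 and 984 CPM in iRTE 1 to 5 and at 574, 695, 727, 633 and 528 CPM in Artificial CD8 1 to 5. It stood at 1035, 1089, 1249, 1070 and 943 CPM in splenic CD8 1 to 5 and at 713, 1127 and 1042 CPM in CD4+CD8+ 1 to 3. The Artificial CD8 libraries were low, with 1 value (727) above the lowest CD4+CD8+ library and none reaching iRTE or splenic cells. Dock2 was 1.88-fold higher in iRTE than in Artificial CD8 (0.91 ± 0.17, adjusted p = 0.000135) and fell by 0.77 ± 0.11 in Artificial CD8 against splenic cells (adjusted p = 0.000287). Between iRTE and splenic cells it did not pass (0.14 ± 0.16, adjusted p = 0.462). Without iRTE 4, its highest library, the iRTE values were 0.74 against Artificial CD8, still called, and -0.03 against splenic cells, not called. With the length trend removed, Dock2 was called higher in iRTE than in splenic cells (0.57, adjusted p = 0.000105).

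Dock8, which activates Cdc42 and keeps the shape of T cells moving through dense tissue, stood at 339, 317, 372, 417 and 253 CPM in iRTE 1 to 5 and at 328, 330, 399, 344 and 316 CPM in Artificial CD8 1 to 5. Its splenic values were 470, 488, 512, 521 and 468 CPM, and its CD4+CD8+ values 263, 340 and 353 CPM. All 5 splenic libraries were above all 13 others, which overlapped. Dock8 did not differ detectably between iRTE and Artificial CD8 (-0.02 ± 0.14, adjusted p = 0.929), and it was lower than in splenic cells by -0.54 ± 0.13 in iRTE (adjusted p = 0.000807) and by -0.52 ± 0.07 in Artificial CD8 (adjusted p = 0.000952). With the length trend removed the first of these was no longer called (-0.16, adjusted p = 0.151).

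The ratio of counts of Dock2 to Dock8 within a library was 2.966, 3.662, 2.864, 4.093 and 3.897 in iRTE 1 to 5 and 1.75, 2.11, 1.82, 1.84 and 1.67 in Artificial CD8 1 to 5. It was 2.20, 2.23, 2.44, 2.05 and 2.01 in splenic CD8, and 2.71, 3.32 and 2.96 in CD4+CD8+ libraries. Every iRTE library was above every Artificial CD8 and every splenic library. The log2 difference was 0.92 ± 0.12 against Artificial CD8 and 0.67 ± 0.12 against splenic cells (exact two-sided permutation test, p = 0.00794 each, the smallest this design allows, adjusted p = 0.0238 over 30 tests of 5 ratios in 6 comparisons). The CD4+CD8+ ratio also lay above all Artificial CD8 and splenic values, but 5 against 3 libraries cannot give a p below 0.0357, and the adjusted p of these comparisons was 0.0595.

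Among the GTPases, Rac2, the Rac protein restricted to blood cells, stood at 2303, 2396, 2833, 1928 and 1818 CPM in iRTE 1 to 5 and at 1148, 1242, 1200, 1309 and 1416 CPM in Artificial CD8 1 to 5. Splenic libraries held 1250, 1289, 1296, 1306 and 1370 CPM, and CD4+CD8+ libraries 2066, 1389 and 1369 CPM. All 5 iRTE libraries were above all Artificial CD8 and splenic libraries, the splenic values lay inside the wider Artificial CD8 range, and CD4+CD8+ 1 lay within the iRTE range. Rac2 was 1.79-fold higher in iRTE than in Artificial CD8 (0.84 ± 0.13, adjusted p = 4.07e-05) and 1.73-fold higher than in splenic cells (0.79 ± 0.12, adjusted p = 3.44e-05). Artificial CD8 and splenic cells were not told apart (-0.04 ± 0.06, adjusted p = 0.78).

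Rac1, the Rac protein found in all tissues, stood at 812, 817, 718, 713 and 592 CPM in iRTE 1 to 5 and at 607, 597, 560, 584 and 559 CPM in Artificial CD8 1 to 5. Splenic libraries held 401, 407, 398, 394 and 451 CPM, and CD4+CD8+ libraries 620, 579 and 621 CPM. The splenic values were below every iPSC-derived library, and of the iRTE libraries only iRTE 5 fell within the Artificial CD8 range, as did CD4+CD8+ 2. Rac1 was higher than in splenic cells by 0.83 ± 0.09 in iRTE (adjusted p = 2.96e-07) and by 0.50 ± 0.04 in Artificial CD8 (adjusted p = 7.03e-05), and higher in iRTE than in Artificial CD8 by 0.33 ± 0.09 (adjusted p = 0.00596). When iRTE 1, 2 and 3 were left out, the last difference was 0.16 and not called (adjusted p = 0.197).

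The count ratio of Rac2 to Rac1 was 2.84, 2.93, 3.95, 2.70 and 3.07 in iRTE 1 to 5, 1.89, 2.08, 2.14, 2.24 and 2.53 in Artificial CD8 1 to 5, and 3.12, 3.16, 3.26, 3.32 and 3.04 in splenic CD8 1 to 5. Artificial CD8 was below both other groups with no overlap (log2 differences of 0.50 ± 0.12 for iRTE minus Artificial CD8 and -0.55 ± 0.07 for Artificial CD8 minus splenic CD8, exact permutation p = 0.00794 and adjusted p = 0.0238 each). In iRTE and splenic cells the ratios overlapped (-0.05 ± 0.10, exact permutation p = 0.675), although both genes stood higher in iRTE.

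Rhoh, a blood-cell GTPase that stays bound to GTP and helps T-cell receptor signalling, stood at 413, 428, 313, 481 and 429 CPM in iRTE 1 to 5 and at 324, 333, 335, 355 and 312 CPM in Artificial CD8 1 to 5. Splenic libraries held a narrow range of 411 to 430 CPM, and CD4+CD8+ libraries 333, 291 and 310 CPM. Apart from iRTE 3, the iRTE libraries lay above the Artificial CD8 and CD4+CD8+ libraries. Rhoh was higher in iRTE than in Artificial CD8 by 0.32 ± 0.11 (adjusted p = 0.0129) and fell by 0.34 ± 0.03 in Artificial CD8 against splenic cells (adjusted p = 0.00467). The first call was lost in a fit of these 2 groups alone (adjusted p = 0.0678), in iRTE 1 to 3 only (0.21, adjusted p = 0.0594) and without the low-count filter (adjusted p = 0.0544). The second was lost with the length trend removed (-0.12, adjusted p = 0.291). Between iRTE and splenic cells Rhoh changed direction with the setting: it was -0.02 ± 0.10 (adjusted p = 0.848), and 0.36 (adjusted p = 0.00318) with the length trend removed.

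The inhibitor Arhgdib, the RhoGDI of blood cells, stood at 2499, 2560, 3333, 2332 and 2618 CPM in iRTE 1 to 5 and at 1381, 1459, 1473, 1553 and 1661 CPM in Artificial CD8 1 to 5. Splenic libraries held 1860, 1787, 1777, 1950 and 2059 CPM, and CD4+CD8+ libraries 3590, 2371 and 2359 CPM. The order iRTE above splenic above Artificial CD8 held with no overlap. Arhgdib was higher in iRTE by 0.83 ± 0.10 against Artificial CD8 (adjusted p = 2.62e-05) and by 0.50 ± 0.10 against splenic cells (adjusted p = 0.00156). It fell by 0.33 ± 0.06 in Artificial CD8 against splenic cells (adjusted p = 0.0249), a call that was lost without any 1 of splenic CD8 1 (-0.30), 4 (-0.29) or 5 (-0.27) or of Artificial CD8 1 (-0.29), 2 (-0.31) or 3 (-0.29).

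Its counterpart in most tissues is Arhgdia, at 848 ± 88.4 CPM in iRTE, 664 ± 35.1 in Artificial CD8, 457 ± 25.8 in splenic CD8 (SD, n = 5 each) and 866 ± 114 in CD4+CD8+ libraries (SD, n = 3). The count ratio of Arhgdib to Arhgdia lay between 2.90 and 3.43 in iRTE, 2.13 and 2.33 in Artificial CD8, 4.01 and 4.28 in splenic CD8, and 2.94 and 3.60 in CD4+CD8+ libraries. Splenic cells were thus highest and Artificial CD8 lowest, and the 3 CD8+ groups did not overlap. The log2 differences were 0.47 ± 0.05 for iRTE minus Artificial CD8, -0.39 ± 0.04 for iRTE minus splenic CD8 and -0.86 ± 0.03 for Artificial CD8 minus splenic CD8 (exact permutation p = 0.00794, adjusted p = 0.0238 each).

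Of the proteins that act on filaments directly, Coro1a, the coronin of blood cells, stood at 2968, 2941, 3430, 2238 and 2820 CPM in iRTE 1 to 5 and at 1919, 1843, 1938, 1999 and 2092 CPM in Artificial CD8 1 to 5. Splenic libraries held 2541, 2390, 2538, 2677 and 2820 CPM, and CD4+CD8+ libraries 2381, 2111 and 2207 CPM. Artificial CD8 was below the other 3 groups with no overlap, and iRTE 4 was the lowest iRTE library. Coro1a was 1.47-fold higher in iRTE than in Artificial CD8 (0.56 ± 0.10, adjusted p = 0.000182) and fell by 0.41 ± 0.05 in Artificial CD8 against splenic cells (adjusted p = 0.0015). Against splenic cells the iRTE change was 0.15 ± 0.11 and did not pass (adjusted p = 0.193), but it was called without iRTE 4 (0.23, adjusted p = 0.0186) and in iRTE 1 to 3 only (0.27, adjusted p = 0.00565), and turned to -0.04 with total counts as the scale.

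Was, the Wiskott-Aldrich protein that drives Arp2/3 after binding Cdc42, stood at 79.3, 79.7, 76.0, 62.4 and 71.7 CPM in iRTE 1 to 5 and at 52.8, 48.6, 47.1, 53.3 and 54.1 CPM in Artificial CD8 1 to 5. Splenic libraries held 65.3, 65.3, 65.7, 69.3 and 67.4 CPM, and CD4+CD8+ libraries 51.7, 58.9 and 58.3 CPM. As for Coro1a, Artificial CD8 was below all iRTE and splenic libraries and iRTE 4 was the lowest iRTE library. Was was 1.44-fold higher in iRTE than in Artificial CD8 (0.53 ± 0.08, adjusted p = 0.000121) and fell by 0.38 ± 0.04 in Artificial CD8 against splenic cells (adjusted p = 0.00119). The change of 0.15 ± 0.07 in iRTE against splenic cells did not pass (adjusted p = 0.161) and was called without iRTE 4 (0.21, adjusted p = 0.0407). Its widely expressed relative Wasl was at 27.3 ± 4.11 CPM in splenic CD8, against 17.4 ± 1.63 in iRTE and 13.3 ± 0.667 in Artificial CD8 (SD, n = 5 each). The count ratio of Was to Wasl lay between 1.98 and 2.85 in splenic CD8, 3.38 and 4.87 in iRTE, and 3.50 and 4.23 in Artificial CD8, so that the splenic ratio was the lowest (log2 difference to iRTE 0.78 ± 0.15 and to Artificial CD8 0.65 ± 0.10, exact permutation p = 0.00794, adjusted p = 0.0238 each).

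The kinase Stk4 stood at 688, 754, 585, 975 and 433 CPM in iRTE 1 to 5 and at 523, 550, 626, 532 and 500 CPM in Artificial CD8 1 to 5. Splenic libraries held 794, 787, 769, 709 and 632 CPM, and CD4+CD8+ libraries 484, 646 and 584 CPM. The iRTE libraries had the highest and the lowest value of all 18, so Stk4 was the most variable member in iRTE apart from Mst1 (29.3% coefficient of variation), while all splenic libraries were above all Artificial CD8 libraries. Stk4 fell by 0.44 ± 0.08 in Artificial CD8 against splenic cells (adjusted p = 0.022), a call lost without splenic CD8 1 (-0.38), 2 (-0.39) or 3 (-0.40) or Artificial CD8 5 (-0.40). The change of 0.33 ± 0.20 in iRTE against Artificial CD8 did not pass (adjusted p = 0.102) and was called without iRTE 5 (0.46, adjusted p = 0.0075).

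Stk3, the second Mst kinase, was far less abundant, at 13.6 ± 7.76 CPM in iRTE, 15.2 ± 4.38 in Artificial CD8, 9.10 ± 0.503 in splenic CD8 (SD, n = 5 each) and 21.1 ± 2.50 in CD4+CD8+ libraries (SD, n = 3). The geometric mean of the count ratio of Stk4 to Stk3 was 27.0 in CD4+CD8+, 55.1 in iRTE, 37.4 in Artificial CD8 and 80.6 in splenic CD8. The ratio was lower in Artificial CD8 than in splenic cells (log2 difference -1.11 ± 0.18, exact permutation p = 0.00794, adjusted p = 0.0238), and every splenic library was above every Artificial CD8 library. The iRTE ratios ran from 37.0 to 109.3 and overlapped both; without iRTE 3, the library with 109.3, the difference of iRTE from splenic cells passed (-0.80), and without Artificial CD8 5 that of iRTE from Artificial CD8 passed (0.73).

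Mst1, the Hgfl gene, was counted 720 times in the splenic libraries, 61 times in Artificial CD8, 16 times in iRTE and 2 times in CD4+CD8+ libraries. Splenic libraries held 10.8, 9.55, 8.30, 9.23 and 9.77 CPM, iRTE libraries at most 0.533 CPM and Artificial CD8 libraries at most 1.44 CPM. It passed the filter only through the splenic libraries, where every value was above those of the other groups. By counts it was 38.7-fold higher in splenic CD8 than in iRTE (95% counting interval 23.7 to 68.1), 13.9-fold higher than in Artificial CD8 (10.7 to 18.4) and 171.6-fold higher than in CD4+CD8+ cells (47.3 to 1419). The intervals cover counting error only.

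**Figure D3:**
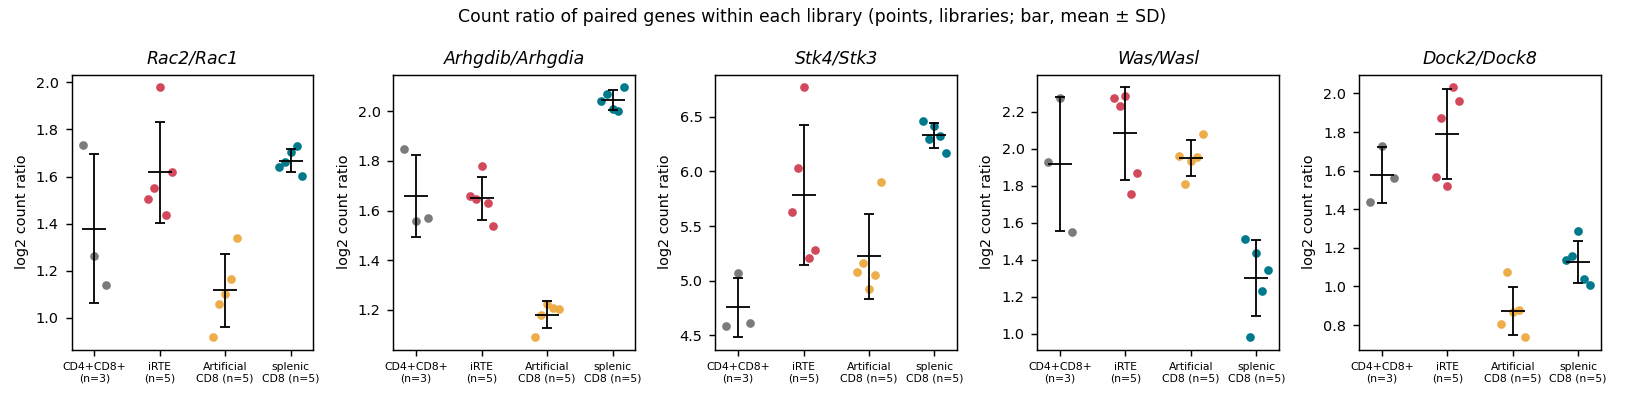
Log2 ratio of counts of 2 related genes within each library (vertical axes) in the 4 groups; points are libraries, and the bars give the mean and SD. Artificial CD8 is lowest for Arhgdib to Arhgdia (1.18 against 1.65 in iRTE), and iRTE is highest for Dock2 to Dock8 (1.79).

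CD4+CD8+ cells, the earlier stage, were compared through 3 libraries. In iRTE against CD4+CD8+ 4 members rose and 0 fell (24.2% of all genes called, 11.8% higher), namely Coro1a (0.37 ± 0.11), Rac2 (0.49 ± 0.23), Rhoh (0.41 ± 0.12) and Was (0.39 ± 0.09), and 1 member, Was, was higher with no overlap (19.5% of all genes, 8.22% higher). These calls were not firm: 0 members were called when the 2 groups were fitted alone, beside 8.89% of all genes. With total counts as the scale 2 were called, and the share of higher genes among the calls moved from 48.9% to 36.9%. There was 1 call without CD4+CD8+ 2, 2 without CD4+CD8+ 3 and 1 in iRTE 4 and 5 only. Without the 3 libraries that stand apart in transcript length 6 were called, beside 26.6% of all genes. The share of all genes called ran from 16.5% to 29.8% when 1 library was left out. Over all alternatives it ran from 8.89% to 35.6%. In Artificial CD8 against CD4+CD8+ 2 members fell and 0 rose (14.7% of all genes called, 6.54% higher and 8.12% lower), Arhgdib by 0.88 ± 0.21 and Dock2 by 0.61 ± 0.22, and 2 members, Coro1a and Arhgdib, were lower with no overlap (29% of all genes, 14.8% lower). The call of Dock2 was lost without CD4+CD8+ 2 (-0.48), CD4+CD8+ 3 (-0.54), Artificial CD8 1 (-0.57) or Artificial CD8 5 (-0.55). In splenic CD8 against CD4+CD8+ 3 members rose, Dock8 (0.63 ± 0.14), Rhoh (0.43 ± 0.06) and Mst1, and 2 fell, Rac1 (-0.57 ± 0.05) and Arhgdib (-0.56 ± 0.21), where 56.2% of all genes were called, 27.4% higher and 28.9% lower. Without Mst1, which passed the filter only through the splenic libraries, 4 of 9 members were called. Of the 10, 7 did not overlap, Mst1 among them (63.4% of all genes, 32.7% higher and 30.7% lower). The call of Rhoh was lost there with the length trend removed (0.12, adjusted p = 0.355).

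Several members moved with the level of long relative to short transcripts. Over the 18 libraries Pearson's r of log2 CPM with that measure was 0.80 for Dock8, 0.67 for Stk4, -0.71 for Rac2, -0.66 for Rac1 and -0.60 for Arhgdib, and between -0.34 and 0.31 for Coro1a, Was, Dock2 and Rhoh. These values describe libraries that also differ by group. In iRTE 4, the iRTE library with the highest length measure (0.22), Arhgdib (2332 CPM), Coro1a and Was had their lowest iRTE values. Dock2, Dock8, Rhoh and Stk4 had their highest iRTE values there. Rac1 (592 CPM) and Rac2 (1818 CPM) were instead lowest in iRTE 5, whose length measure was -0.45. The part of transcript length in the other results was not tested beyond the setting that follows. With the length trend removed 8 members were higher in iRTE than in Artificial CD8, Stk4 included (0.40, adjusted p = 0.0253), beside 23.1% of all genes under that setting. Against splenic cells 5 were higher and 1, Mst1, was lower, beside 33.5% and 24.7% of all genes. In Artificial CD8 against splenic cells 1 was higher and 7 were lower, Mst1 among them, beside 33.4% and 28.7%. Mst1 passed the filter only through the splenic libraries, so its place among the lower members carries no weight.

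**Figure D4:**
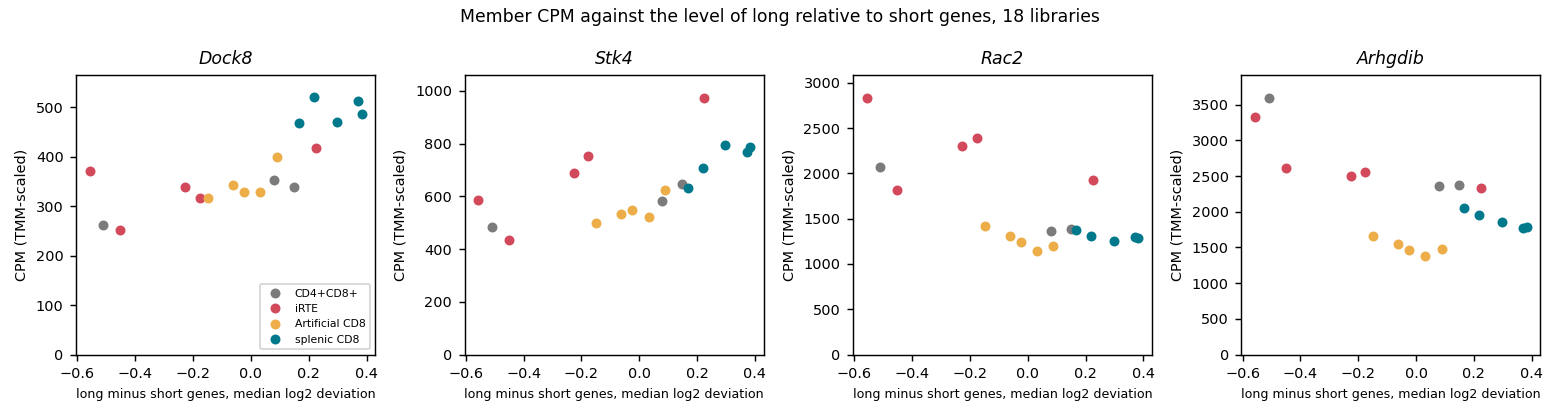
TMM-scaled CPM (vertical axes, from 0) of 4 members against the median log2 deviation of long minus short genes (horizontal axes); each point is 1 of 18 libraries, coloured by group. Dock8 and Stk4 are higher to the right, Rac2 and Arhgdib to the left, and for Rac2 and Arhgdib all iRTE points lie above all Artificial CD8 points.

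The wider actin and Mst kinase pathway was described through 8 lists of 157 genes, of which 153 were in the files and 146 were tested, 137 of them no members. In iRTE against Artificial CD8 77 of these 137 were higher and 13 lower, beside 20% and 18.7% of all genes. The median log2 change of these 137 genes was 0.38, beside 0.01 for all genes. In iRTE against splenic CD8 51 were higher and 38 lower, beside 29.2% and 29% of all genes (median 0.10 beside -0.05). In Artificial CD8 against splenic CD8 33 were higher and 56 lower, beside 30.3% and 30.2% of all genes (median -0.18 beside -0.03).

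Against Artificial CD8, 8 of the 10 genes of the Arp2/3 complex rose in iRTE and 0 fell, or 6 with total counts as the scale. Its subunits Arpc2 (978 ± 102 against 623 ± 35.2 CPM, 0.65 ± 0.08) and Arpc3 (359 ± 87.7 against 203 ± 8.59 CPM, 0.82 ± 0.16) were among those called, and Actr2 (-0.18 ± 0.11, adjusted p = 0.334) did not pass. Of the 28 other genes of coronins and actin turnover 16 rose and 3 fell. Tmsb4x, thymosin beta-4, which holds actin monomers, rose from 2922 ± 152 to 8811 ± 2334 CPM (1.59 ± 0.16), and Ssh1, a phosphatase that activates cofilin, from 17.6 ± 1.57 to 50.7 ± 8.19 CPM (1.52 ± 0.12), whereas Gmfb fell by 0.66 ± 0.10. Actb, beta-actin, was at 5468 ± 1939 and 4890 ± 238 CPM (0.16 ± 0.20, adjusted p = 0.442), with its sign reversed without iRTE 3 (-0.09). Actb and Tmsb4x have close relatives, so how their reads were divided is uncertain.

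Filament elongation, cross-linking and membrane anchoring showed 16 of 23 genes higher and 2 lower in that comparison. Evl, an elongation factor of the Ena/VASP family, rose from 82.9 ± 2.55 to 228 ± 31.5 CPM (1.46 ± 0.09) and the class I myosin Myo1f from 271 ± 25.4 to 679 ± 71.2 CPM (1.32 ± 0.09). Ezr, ezrin, which ties filaments to the membrane, fell from 696 ± 34.3 to 390 ± 47.2 CPM (-0.84 ± 0.09). Of 20 other exchange factors 9 rose and 4 fell: Arhgef1, which acts on RhoA, rose by 0.79 ± 0.09 and Arhgef7 fell by 1.13 ± 0.29. With total counts as the scale the list of exchange factors, Dock2 and Dock8 included, had 6 higher in place of 10.

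The remaining lists moved in the same comparison as follows. Of 14 other GTPase inhibitors and GAPs 8 rose and 1 fell, with Hmha1, a GTPase-activating protein of blood cells, higher by 0.98 ± 0.16 and Arhgap19 lower by 1.54 ± 0.23. Of 17 other genes of the WASP and WAVE group 7 rose and 1 fell, Pstpip1, a partner of the Wiskott-Aldrich protein, rising by 0.84 ± 0.18 and the adaptor Nck2 falling by 1.37 ± 0.16. With Was included the higher count was 8, and it was 5 without any 1 of iRTE 1, iRTE 2, Artificial CD8 2 or Artificial CD8 5. In the Mst kinase pathway 7 of 16 rose and 2 fell, with the kinases Stk38 (1.03 ± 0.18) and Lats2 (1.49 ± 0.32) higher in iRTE. In that list 11 rose without the 3 libraries that stand apart in transcript length.

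The lists differed in their counts against splenic cells. The Arp2/3 complex had 6 of 10 genes higher in iRTE and 0 lower, with Arpc4 at 377 ± 75.1 against 154 ± 7.82 CPM (1.29 ± 0.14), and coronins and actin turnover had 16 of 28 higher and 5 lower, with the filament-capping gene Capg at 115 ± 44.3 against 15.4 ± 1.48 CPM (2.90 ± 0.25) and Cfl2, a cofilin, lower by 1.47 ± 0.23. Of 20 other exchange factors 2 were higher, 9 were lower and 9 did not pass, beside 29.2% and 29% of all genes: Arhgef1 stood at 838 ± 101 CPM in iRTE and 2109 ± 154 in splenic cells (-1.33 ± 0.09). With the length trend removed that list, Dock2 and Dock8 included, had 5 higher and 6 lower in place of 2 and 10. Cdc42, the GTPase on which Dock8 acts, was 2.30-fold higher in iRTE (1399 ± 278 against 609 ± 27.6 CPM, 1.20 ± 0.14). Myo1f was 8.76-fold higher (3.13 ± 0.10), Arhgap4 fell by 1.73 ± 0.17, and Ezr and Evl were lower by 0.75 ± 0.09 and 0.71 ± 0.10.

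In Artificial CD8 against splenic cells 11 of 20 other exchange factors were lower, 1 was higher and 8 did not pass, beside 30.2% of all genes lower and 30.3% higher. Of the 23 genes of the anchoring group 11 were lower, 2 were higher and 10 did not pass. Arhgef1 fell by 2.12 ± 0.06, from 2109 ± 154 to 485 ± 32.7 CPM, Dock10, a relative of Dock8, by 1.11 ± 0.06, Evl by 2.17 ± 0.06 and Hmha1 by 2.00 ± 0.07. In the Mst kinase pathway 10 of 16 were lower and 4 higher, Stk38 falling by 1.29 ± 0.04 and Prdx1 rising by 1.81 ± 0.06, and without Artificial CD8 1 the higher count was 2. Coronins and actin turnover were divided, with 12 of 28 higher and 10 lower, and the Arp2/3 complex had 2 of 10 higher and 1, Arpc1b, lower (-0.67 ± 0.06), or 5 and 3 without the 3 libraries that stand apart in transcript length.

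**Figure D5:**
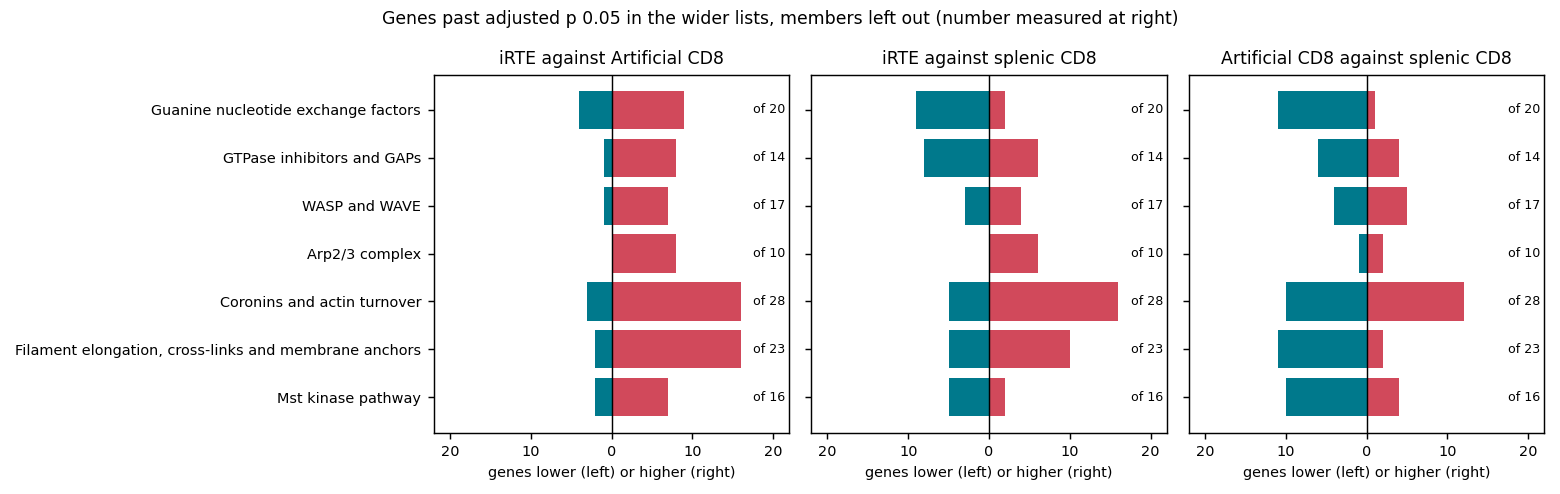
Number of genes past adjusted p 0.05 (horizontal axes; red to the right of 0, higher in the first group; teal to the left, lower) in each of 7 pathway lists without the members, for 3 comparisons; the number tested stands at the right. For iRTE against Artificial CD8 the red bars exceed the teal bars in all 7 lists, while exchange factors have 9 lower and 2 higher against splenic cells.

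Across the 18 libraries the members did not follow 1 pattern. Pearson's r of log2 CPM was 0.91 between Coro1a and Was, 0.84 between Rac2 and Arhgdib, 0.75 between Dock2 and Stk4, and -0.69 between Dock8 and Rac1. All of these values share libraries, depth and the length measure, and are given as a description. Among 8355 genes with a mean of at least 10 CPM, those most like Coro1a were Trappc6a (0.97), Cd52 (0.97) and Psme1 (0.96), and those most like Rac1 were Prkar1a (0.97), Cdc42 (0.97) and Fuca2 (0.97). Rac2 was closest to Prdx6 (0.98), Elovl1 (0.97) and Srgn (0.96), and Arhgdib to Psmd4 (0.95), Pdcd6 (0.95) and Eapp (0.94). Dock2 was closest to Slc43a2 (0.94), Whsc1l1 (0.92) and Tiparp (0.91), Dock8 to Fam160b1 (0.95), Unc119b (0.94) and Sec24c (0.94), and Stk4 to Atp11b (0.95), Nedd9 (0.93) and Nup153 (0.93). The neighbours of Was were Ppp3cc (0.94), Mapkapk3 (0.94) and Zadh2 (0.93), and those of Rhoh were Crlf3 (0.92), Dhrs7 (0.90) and Zbtb25 (0.90). Mst1 was closest to Btbd11 (0.94), Xlr4c (0.94) and Haus5 (0.93).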

How the data were processed

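Total RNA of 18 sorted mouse samples in 4 groups was sequenced. The authors deposited whole-number read counts per gene symbol, made with STAR 2.4.2 on build mm9 and with Subread, per the submitters' processing notes; the gene annotation used was not given in the sources used here, nor was any strand option. A deposited table of log2 values was not used. Groups came from sample titles. edgeR 4.0.16 (R 4.3.3; filterByExpr, TMM, robust quasi-likelihood fit over all groups) tested 6 comparisons, with Benjamini-Hochberg adjustment over 13922 genes; each ± on a change comes from log2 CPM with a prior count of 2. DESeq2 1.42.0, limma-voom 3.58.1, other scalings, filters and sample sets were alternatives. Ratios of counts (0.5 added) were compared by exact permutation. Scripts were tested on simulated data. Exon lengths came from GENCODE M21 and matched 93.9% of tested genes; builds differ, so they serve only for length.

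Depth was 11132800 to 19305800 counts per library, at which 3 counts equal 0.152 to 0.288 CPM. The labels do not state that equal replicate numbers pair samples, and deviations of equal numbers correlated weakly (-0.07 to 0.06), so no block was used. In Artificial CD8 against splenic CD8 3 of 5 libraries matched their own number best, and 0 or 1 in each other comparison. Pairing is therefore not excluded. Members and lists were chosen with earlier results of these data known. All members are named; from each list, up to 2 called genes in each direction with the smallest adjusted p (higher group averaging 10 CPM or more), and 1 that did not pass, could be named, as could the 3 genes most correlated with each member. The result of 1 list is not reported here.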

Additional observations from a re-analysis of the deposited data

Results flagged for a closer look

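In 45 groups of 5 values, 4 libraries lay farther from the rest of their group than Dixon's 95% limit of 0.71; chance alone flags about 1 in 20 groups. Dock2 stood at 1708 CPM in iRTE 4, where the other iRTE libraries held 984.2 to 1159 CPM. Rac1 stood at 450.8 CPM in splenic CD8 5, above the 393.9 to 407.2 CPM of the other splenic libraries and still below every iPSC-derived library. Arhgdib stood at 3333 CPM in iRTE 3, above 2332 to 2618 CPM in the others. The log2 ratio of Stk4 to Stk3 counts was 5.90 (5.899) in Artificial CD8 5, against 4.92 to 5.16 in the other Artificial CD8 libraries, with Stk3 at 8.35 CPM there. What set these libraries apart was not tested.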

How the results depend on the processing

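Alternatives covered 1191 values of member changes, of which 1085 kept their direction and their side of the threshold, 38 lost and 38 gained a call and 30 changed sign; of 1920 list counts, 1716 stayed within 1.5 times. Without a low-count filter 21.2%, 34.5%, 36.5%, 12.7%, 6.81% and 32.2% of genes were called in iRTE against Artificial CD8, iRTE against splenic CD8, Artificial CD8 against splenic CD8, and iRTE, Artificial CD8 and splenic CD8 against CD4+CD8+, since more genes were tested. Fitted alone, iRTE against CD4+CD8+ gave 8.89% and 0 members, Artificial CD8 against CD4+CD8+ 26.2%, and splenic CD8 against CD4+CD8+ 9 members; DESeq2 called 5 members in iRTE against CD4+CD8+. Total counts alone gave 2 and 8 members for iRTE and splenic CD8 against CD4+CD8+, and iRTE 4 and 5 only gave 1 member for the former. Over all alternatives 8.89% to 35.6% of all genes were called in iRTE against CD4+CD8+. In splenic CD8 against CD4+CD8+ the share ran from 32.2% to 70.7%. Leaving out 1 library moved the members called from 1 to 5 in iRTE against CD4+CD8+, beside 16.5% to 29.8% of all genes. In Artificial CD8 they moved from 1 to 3 against CD4+CD8+ (8.99% to 12.9% of all genes) and from 7 to 9 against splenic CD8 (56.4% to 58.9%). In iRTE they moved from 7 to 8 against Artificial CD8 (34.4% to 43.8%) and from 5 to 7 against splenic CD8 (53.5% to 62%). The cause of these shifts was not tested.

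Sign changes, all but 1 of them not called, were as follows. With total counts, iRTE minus splenic CD8 was -0.04 for Coro1a, -0.04 for Dock2 and -0.04 for Was (-0.035, -0.038 and -0.035), and iRTE minus CD4+CD8+ -0.02 (-0.019) for Dock8. In iRTE 1 to 3 only, Arhgdib was 0.01 (0.014) against CD4+CD8+ and the Rac2 to Rac1 ratio 0.01 (0.011) against splenic CD8. In iRTE 4 and 5 only, Actb was -0.13 (-0.133) against Artificial CD8, Coro1a -0.03 and Rhoh 0.13 (0.125) against splenic CD8, and the Was to Wasl ratio -0.14 (-0.135) against Artificial CD8 and -0.10 (-0.104) against CD4+CD8+. With the length trend removed, Dock8 was 0.15 (0.149) against Artificial CD8, Rhoh 0.36 (0.361, called) and Stk4 0.08 (0.079) against splenic CD8, and Dock2 -0.18 (-0.175) in splenic CD8 against CD4+CD8+. Without CD4+CD8+ 1, iRTE 3 and iRTE 5 together, Dock8 was 0.06 (0.059) and Actb -0.07 (-0.067) in iRTE against Artificial CD8, Rhoh 0.07 (0.074) and Stk4 0.13 against splenic CD8, Arhgdib 0.06 (0.059) against CD4+CD8+, Dock8 -0.01 (-0.013) in Artificial CD8 against CD4+CD8+ and Dock2 -0.01 (-0.014) in splenic CD8 against CD4+CD8+.

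Leaving out 1 library gave these ranges for the changes that turned sign: iRTE against Artificial CD8, Dock8 -0.103 to 0.073 and Actb -0.086 to 0.228; iRTE against splenic CD8, Dock2 -0.031 to 0.213, Rhoh -0.083 to 0.062 and Stk4 -0.262 to 0.025; iRTE against CD4+CD8+, Dock8 -0.032 to 0.182, Arhgdib -0.159 to 0.171, the Arhgdib to Arhgdia ratio -0.059 to 0.087 and the Was to Wasl ratio -0.018 to 0.345. For Artificial CD8 against CD4+CD8+ they were -0.013 to 0.192 for Dock8, -0.173 to 0.034 for Stk4 and -0.153 to 0.211 for the Was to Wasl ratio, for Artificial CD8 against splenic CD8 -0.086 to 0.003 for Rac2, and for splenic CD8 against CD4+CD8+ -0.013 to 0.284 for Dock2. The Stk4 to Stk3 ratio was called in 1 to 2 comparisons, 2 of them without iRTE 3 or without Artificial CD8 5.

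With a replicate block, which rests on numbers not labelled as pairing the samples, the count of members called was 7, 5, 9, 4, 2 and 6, with Stk4 added in splenic CD8 against CD4+CD8+ (0.42, adjusted p = 0.0464) and no other member call changed. All 5 ratios had 0 calls with the replicate block, in iRTE 1 to 3 only and in iRTE 4 and 5 only. With the replicate block, and for iRTE 4 and 5 only, too few arrangements were left to pass. For iRTE 1 to 3 only, the smallest exact permutation p against a group of 5 libraries was 0.0357. That value could pass the adjustment only beside many other small p-values. Artificial CD8 against splenic CD8 kept all its libraries in the iRTE subsets. It lost its calls there through the adjustment alone, since fewer of the other ratio tests had small p-values. The adjusted p of a ratio thus depends on the other ratio tests, and these losses say nothing about stability. In the paired ratios the signs of Arhgdib to Arhgdia (0.04, 0.036) in iRTE and of Was to Wasl (-0.02, -0.016) in Artificial CD8 against CD4+CD8+ turned, and in iRTE 1 to 3 only the former was also 0.036. Mst1 had 0 to 28 counts in each library derived from iPSC, and comparisons with CD4+CD8+ rest on 3 libraries of that group.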
